A study of Rattus norvegicus with 8 samples.

Results

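The translation initiation and elongation factors are the proteins that bring the ribosome to an mRNA, set it at the start codon, move it along the coding sequence and release the finished chain. Members were chosen by gene symbol, with earlier results of these data known. The rule took symbols in the deposited gene table that begin with Eif1 to Eif6, Eef1 or Eef2, without the eIF2 kinases (Eif2ak). It added the release factors Etf1 and Gspt1, and also Tpt1, Pabpc1 and Pabpc4. The rule found 64 of 17320 genes. A RefSeq transcript in the library files matched 59 of them, and each of the 59 had 1 transcript there.

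The study took neurons from dorsal root ganglia of rats at embryonic day 15 and kept them for 7 days in microfluidic chambers, which let axons grow into a separate compartment. All cultures received a lentivirus on the day of plating, carrying either a control hairpin RNA (shControl) or a hairpin against Pum2 (shPum2), and RNA was collected from the somatic and the axonal compartment. The 4 groups are therefore somatic shControl, somatic shPum2, axonal shControl and axonal shPum2, with 2 libraries each. The labels do not say whether the 2 libraries of a group came from separate cultures, so p-values measure the spread between these libraries, which may be technical. The somatic RNA is labelled as cell bodies together with axons. Somatic libraries came from a standard kit and axonal libraries from an ultra-low input kit, so kit and compartment cannot be told apart.

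As background, eIF2 carries the initiator tRNA to the small ribosomal subunit, and eIF2B reloads eIF2 with GTP after each round. The scaffold complex eIF3 binds the small subunit, and the cap-binding protein eIF4E, the helicase eIF4A and the eIF4G scaffold bring that subunit to the mRNA. eEF1A delivers each tRNA, the eEF1B complex reloads eEF1A, eEF2 moves the ribosome by a codon, and eIF5A helps it past difficult peptide bonds. Many mRNAs of this machinery belong to the TOP class, whose first bases are a run of pyrimidines and whose translation follows mTOR signalling. Axons are known to hold mRNAs for ribosomal proteins and translation factors and to translate locally. Pumilio proteins are known to bind the untranslated end of mRNAs, and Eif4e mRNA is among their known targets.

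Libraries held 11641947 to 25821766 estimated counts. The 10 most abundant genes took 5.92% to 6.60% of the counts in somatic libraries and 24.3% to 30.4% in axonal libraries. The targeted gene Pum2 had CPM values (counts scaled to the library total) of 164 and 160 in somatic shControl and of 38.2 and 36.5 in somatic shPum2, a log2 change of -2.13 (edgeR quasi-likelihood test, Benjamini-Hochberg adjusted p = 0.0247). In axons Pum2 had 3.25 and 0.443 CPM under shControl against 1.46 and 7.07 CPM under shPum2, so a reduction was not detected there. All 10 neuronal markers on a fixed list were found in every library, with a summed level of 26111 to 30767 CPM in somatic and 14553 to 29699 CPM in axonal libraries. Of 10 macrophage and blood markers, 9 were measured. Their sum was 50.1 to 205 CPM in somatic libraries and 1983, 2864, 3707 and 271 CPM in the axonal ones, lowest in replicate 2 of shPum2. The 9 measured fibroblast markers of 10 summed to 1866 to 8658 CPM in somatic and 92.7 to 795 CPM in axonal libraries, and the 10 markers of Schwann and satellite glia to 43.6 to 105 and 82.1 to 204 CPM, with Cdh19 at 0 in every axonal library.

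The starts of 4 mRNAs of the TOP class are shown because Eef1a1 and Tpt1, the most abundant members of the somatic and the axonal pool, belong to that class. The tract that defines the class was searched for around these annotated starts. In none of the 4 did a tract begin at the first annotated base itself, and Tpt1 has no marked tract. Each line gives 10 bases before and 20 bases from the RefSeq start on assembly GRCr8, 5′ to 3′. Capitals mark the longest tract, an unbroken run of C and T counted from its first C with at least 4 letters after it, among those whose first C lies within 10 bases of the start.
Eef1a1: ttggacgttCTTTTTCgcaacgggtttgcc
Eef1b2: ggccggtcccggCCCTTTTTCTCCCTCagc
Eif3f: cccttccgttctagCCTCTCTCTTTCTCgg
Tpt1: ctccccccgagcgccgctccggctgcaccg

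The windows lie at chr8:88225050-88225079 on the minus strand for Eef1a1, chr9:72074081-72074110 on the plus strand for Eef1b2, chr1:172369052-172369081 on the plus strand for Eif3f and chr15:57566134-57566163 on the plus strand for Tpt1. RefSeq promoter entries were found for 57 of the 64 members. The tract, searched on the transcribed strand, was found in 3 of 6 members listed as TOP mRNAs and in 12 of 51 other members (23.5%). It was found in 25.6% of 13030 measured genes with an entry. The run of C and T at the left edge of the Tpt1 window begins further upstream and is therefore not counted or marked. When any C within 10 bases could open the tract, so that such runs enter, it was found in 4 of the 6 (Tpt1 added), in 15 of the 51 (29.4%) and in 27.4% of the measured genes. For Eef2 and Eef1g no such letters began within 10 bases of this annotated start, which says nothing beyond that.

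In somatic libraries Eef1a1 was the most abundant member, followed by Tpt1, Eef2 and Eif5a at similar levels. Levels are given as TPM, a share of a library's transcripts corrected for length, so that genes can be compared. Eef1a1, the general tRNA-delivering factor, was at 4247 and 4429 TPM with shControl and at 4351 and 4263 TPM with shPum2, which placed it between rank 9 and rank 11 of all genes. Tpt1 followed at 1378 and 1522 TPM with shControl and 1520 and 1436 TPM with shPum2. It encodes the translationally controlled tumour protein, a TOP mRNA product reported to bind elongation factors. Eef2 was at 1394, 1537, 1372 and 1467 TPM in the same order of libraries, and its range overlapped that of Tpt1. Eif5a stood at 1277, 1306, 1268 and 1308 TPM. Eef1g, a subunit of the eEF1B exchange complex, ranged from 923 to 1076 TPM and Eif1, which guards start codon choice, from 830 to 918 TPM. At the other end Eef2kmt, the methyltransferase of eEF2, was at 0.176 to 1.15 TPM, and the cap-binding paralog Eif4e3 at 7.18 to 11.2 TPM.

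Members of some complexes were at like levels in somatic libraries, and those of others were not. The 5 eIF2B subunits had mean somatic levels from 51.1 TPM (Eif2b3) to 66.7 TPM (Eif2b2), a 1.31-fold span. The 11 measured eIF3 subunits ran from 113 TPM (Eif3m) to 286 TPM (Eif3f), a 2.53-fold span. The release factors Etf1 and Gspt1, which act as a pair at stop codons, averaged 100.1 and 100.6 TPM, with single libraries from 95.7 to 103 TPM. Spans were wider for the eEF1B group (9.25-fold over 4 members, from Eef1e1 at 107 TPM to Eef1g at 993 TPM). For eIF4F and its helpers the span was 73.5-fold over 9 members, from Eif4e3 to Eif4a1. The eIF2 group spanned 6.44-fold over 4 members, from Eif2s3y, the Y-linked copy of Eif2s3, to Eif2s2. Apart from that copy, Eif2s1, Eif2s3 and Eif2s2 averaged 97.9, 99.1 and 261 TPM. In axonal libraries the spans of eIF2B and eIF3 were wider than in somatic ones: 2.40-fold for eIF2B (9.82 to 23.6 TPM) and 15.6-fold for eIF3, from 9.32 TPM for Eif3a to 145 TPM for Eif3i. Single axonal libraries scattered more, as with Eif2b2 at 11.7 and 0.128 TPM in shControl and 47.5 and 14.0 TPM in shPum2. That scatter exceeds the 2.40-fold span of the eIF2B means, and its part in the wider axonal spans was not tested.

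**Figure D1:**
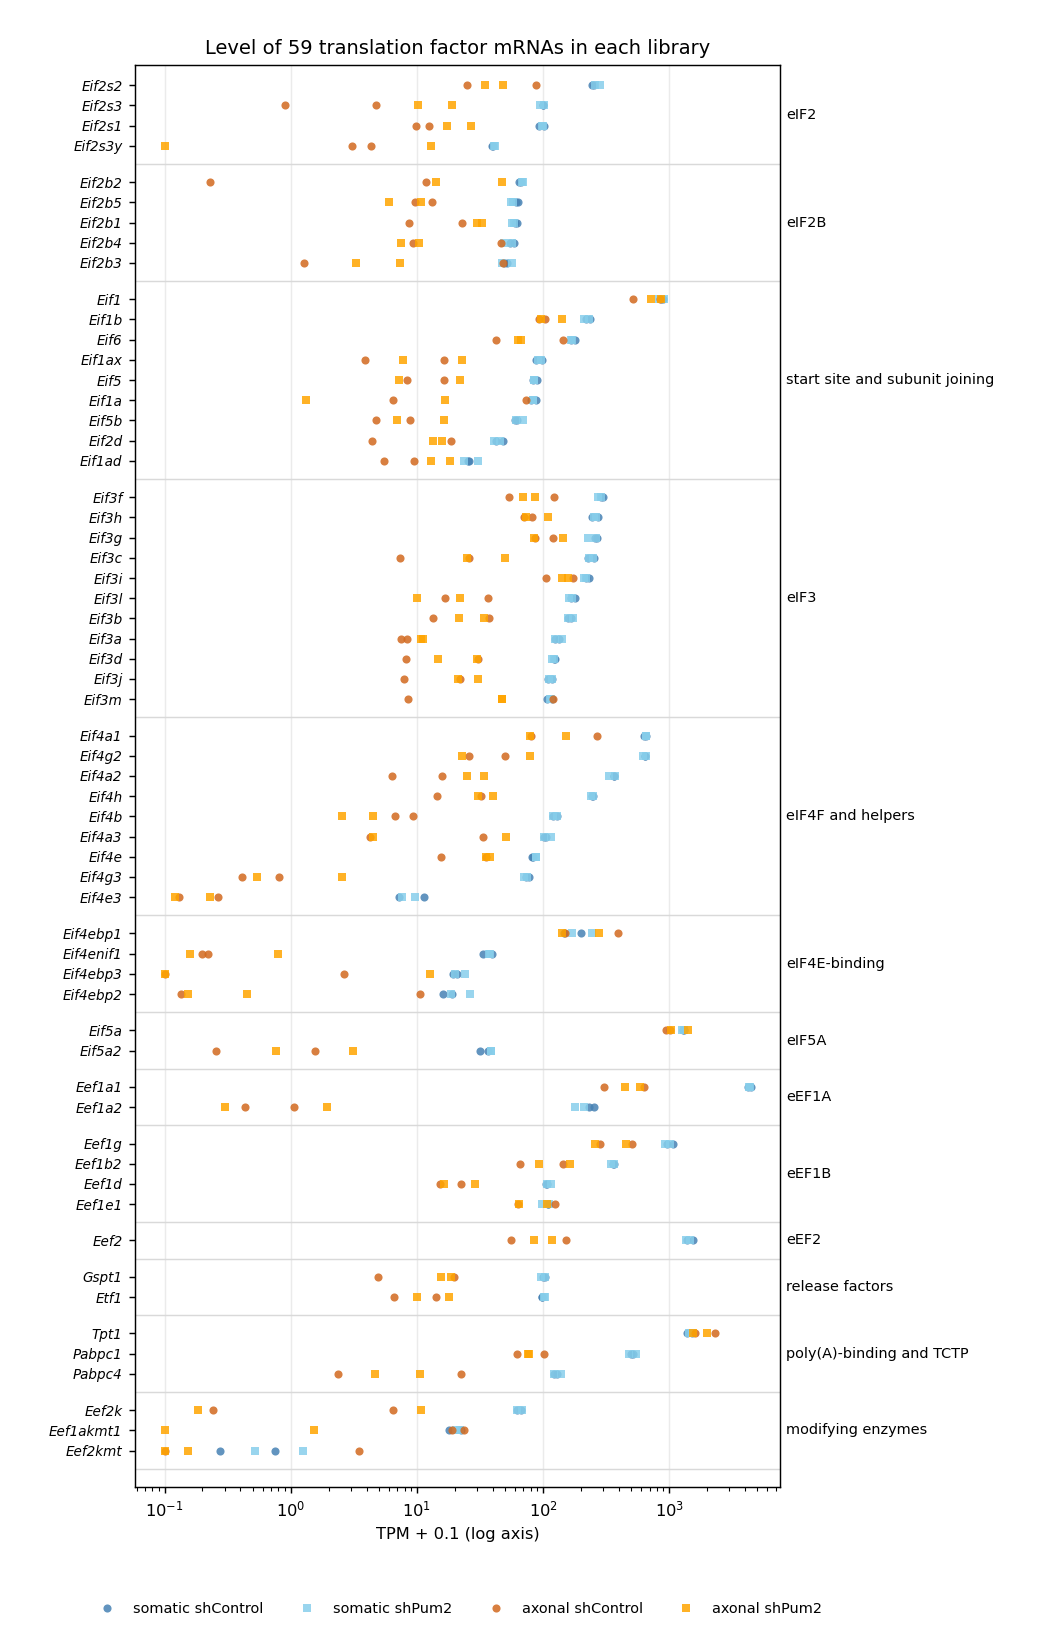
Levels of the 59 measured members in each of the 8 libraries (TPM with 0.1 added, log axis), grouped by role and ordered within a role by the somatic mean. Somatic points (blue) lie close together, from 4247 to 4429 TPM for Eef1a1, while axonal points (orange) spread widely and lie lower for most members, with Tpt1, Eif5a, Eif1 and Eif4ebp1 near their somatic level.

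Replicate agreement set how firmly single members can be described. With 1 TPM added to each level, no member differed more than 2-fold between the 2 libraries of a somatic group. Eef2kmt, at levels near or below 1 TPM, did so without the added 1 TPM (0.650 and 0.176 TPM with shControl, 1.15 and 0.421 TPM with shPum2). On the same scale of TPM + 1 the median difference was 1.06-fold with shControl and 1.07-fold with shPum2. In axonal shControl 33 of 59 members differed more than 2-fold and 10 more than 4-fold, with a median of 2.15-fold. In axonal shPum2 the numbers were 16 and 5, with a median of 1.60-fold. Of the members with an axonal mean of at least 100 TPM, 5 of 11 exceeded 2-fold with shControl and 0 of 12 with shPum2. Axonal statements below are therefore less firm for single members. Some rest on abundant members or on all 4 axonal libraries, but several describe low members from 2 libraries against 2.

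The summed level of the 59 members was 18021 to 18837 TPM in somatic libraries and 5066 to 8000 TPM in axonal libraries, so the 2 compartments did not overlap. For 50 of the 59 members (84.7%) every axonal library was below every somatic one, against 67.9% of 15049 detected genes. Tpt1 alone was above in every axonal library, which held for 3.42% of all genes. The other 8 (Eef1akmt1, Eef1e1, Eef2kmt, Eif1, Eif2b3, Eif3m, Eif4ebp1 and Eif5a) overlapped. The median member had an axonal mean at 17.7% of its somatic mean, against 8.68% over all genes and 15.1% over the 3557 genes with a somatic level from 50 to 5000 TPM. TPM are shares of a library, and in bulk RNA fewer cells or axons of a kind and less RNA in each cannot be told apart.

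The make-up of the translation factor pool differed between compartments in every library. Eef1a1 held 23.6%, 23.5%, 24.0% and 23.1% of the members' summed TPM in somatic libraries and 6.02%, 7.96%, 7.38% and 8.09% in axonal ones. Its level there was 305 and 637 TPM with shControl and 450 and 591 TPM with shPum2, and its rank among all genes 227 to 352. Eef2 went from 7.57% to 8.16% of the pool in somatic libraries to 1.10% to 1.93% in axonal ones, where it was at 56.0, 151, 118 and 85.2 TPM. Both elongation factors thus took a smaller share of the axonal pool, with no overlap between libraries.

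Tpt1 took 7.65% to 8.38% of the somatic pool and 31.4%, 28.8%, 25.4% and 27.2% of the axonal pool. Its axonal levels were 1589 and 2306 TPM with shControl and 1547 and 1985 TPM with shPum2. Eif5a went from a somatic share of 6.94% to 7.09% to an axonal share of 11.7% to 20.1%, with axonal levels of 1019, 938, 1043 and 1406 TPM. Eif1 went from 4.57% to 4.98% of the somatic pool to 10.2% to 11.9% of the axonal one. The 3 most abundant members together made 38.9% to 39.9% of the somatic and 51.1% to 61.7% of the axonal pool. Macrophage and blood markers were higher in all 4 axonal libraries than in the somatic ones, and their part in these shares was not tested. In the axonal library with the lowest sum of these markers, replicate 2 of shPum2 (271 CPM), Tpt1 held 27.2%, Eif5a 19.3% and Eef1a1 8.09% of the pool. Members of eIF4F and its helpers held 2.92% there, against 3.65% to 6.34% in the other three axonal libraries and 12.2% to 12.7% in somatic ones.

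**Figure D2:**
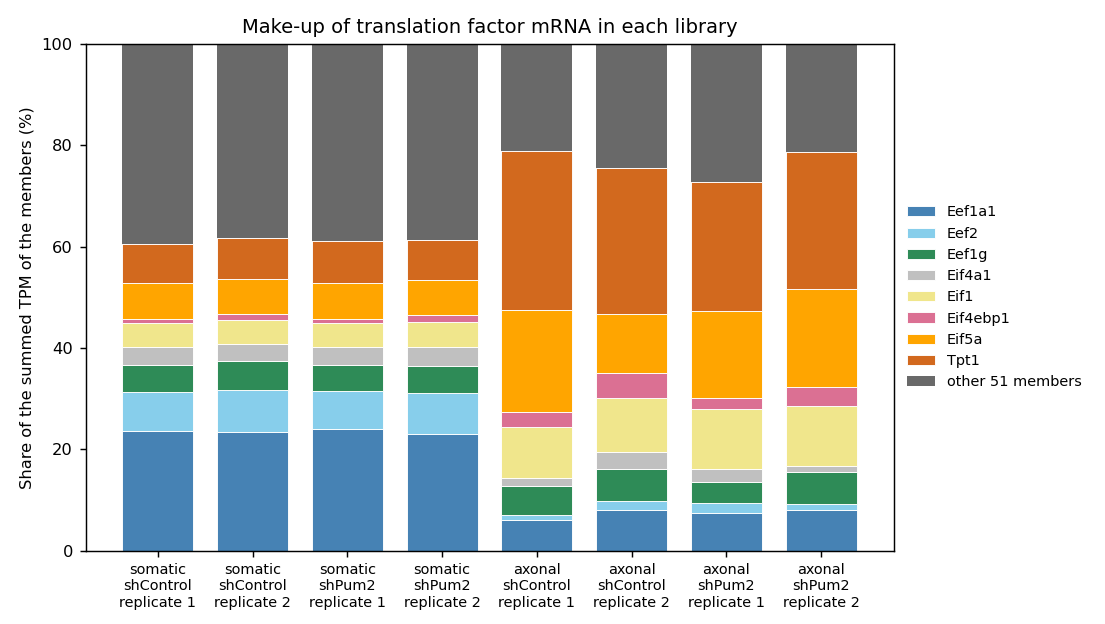
Share of each library's summed member TPM (percent, vertical axis from 0) held by 8 members and by all others, for the 8 libraries. Eef1a1 falls from 23.1% to 24.0% in the 4 somatic bars to 6.02% to 8.09% in the 4 axonal bars, while Tpt1 grows from 7.65% to 8.38% to between 25.4% and 31.4%.

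The ratio of paralogs differed between compartments for most of the pairs examined, and a ratio within a library needs no scaling between libraries. Eef1a2, the eEF1A form of mature neurons and muscle, was at 252, 232, 180 and 210 TPM in somatic libraries and at 0.972, 0.334, 1.84 and 0.202 TPM in axonal ones. The ratio of Eef1a1 to Eef1a2 (with 1 TPM added to each) was 16.8 to 24.0 in somatic and 155 to 493 in axonal libraries. Eif5a2, the less abundant eIF5A gene, was at 31.3 to 38.9 TPM in somatic and at 1.47, 0.158, 2.99 and 0.669 TPM in axonal libraries, and the ratio of Eif5a to Eif5a2 was 31.8 to 40.5 against 261 to 843. The ratio of Eif1 to Eif1b, a close copy, was 3.76 to 3.93 against 5.47 to 8.02. The ratio of the helicases Eif4a1 and Eif4a2 was 1.73 to 1.95 against 2.29 to 15.8. In each of these 4 pairs the first-named gene had the higher relative level in all 4 axonal libraries.

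Over 10 such pairs, 8 had ratios that did not overlap between the 4 axonal and the 4 somatic libraries (two-sided exact permutation p = 0.0286, the smallest that 4 against 4 can give; 0.0357 after Benjamini-Hochberg adjustment over the 10). These p-values pool both hairpins within a compartment. Besides the 4 above, they were Eif4e over Eif4e3, Eif4g2 over Eif4g3, Eif4ebp1 over Eif4ebp2 and Pabpc1 over Pabpc4, the poly(A)-binding pair. With 5 TPM added, Eif4g2 over Eif4g3 reversed, to a mean axonal minus somatic log2 ratio of -0.12, and the other three of these no longer passed. In all 8 pairs the second-named gene was the less abundant one. Of all genes, 67.9% were lower in every axonal library, and the share of unrelated gene pairs whose ratios separate was not computed. Eif4a1 over the exon junction helicase Eif4a3 ran from 5.64 to 6.40 in somatic and from 2.36 to 51.8 in axonal libraries (exact permutation p = 0.686). Eif2s3 over its Y-linked copy Eif2s3y was 2.24 to 2.49 against 0.457 to 11.1 (exact permutation p = 0.6). Near-identical copies and processed pseudogenes are common for Eef1a1, Tpt1, Eif1, Eif5a and the Eif4a and Eif1a genes, and kallisto divided shared reads by its own estimate, so their values are uncertain to that extent.

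The axonal libraries were tested against the somatic ones within each hairpin, on counts scaled by TMM, a method that takes most genes as unchanged. With shControl, 6 members were higher and 4 lower in axonal libraries of 59 tested (edgeR quasi-likelihood, Benjamini-Hochberg, adjusted p below 0.05). That is 16.9% of members against 27.9% of 12337 genes tested, with 10.2% against 9.41% higher and 6.78% against 18.5% lower. With shPum2, 6 were higher and 4 lower, against 24.7% of all genes tested, 8.45% higher and 16.2% lower. The median log2 difference of the members was 0.10 with shControl and 0.085 with shPum2, beside -0.75 and -0.64 over all genes tested. The 2 comparisons use different libraries but share the estimated spread of each gene. That spread pools somatic and axonal libraries, which scatter unequally. The coefficient of variation that edgeR estimated was 23.5% in the somatic fit, 125% in the axonal fit and 91.1% in the fit of all 8. Standard errors and p-values between compartments therefore need not match the spread of either compartment.

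The same 6 members were higher with both hairpins on TMM-scaled counts: Tpt1, and Eif4ebp1, Eef1e1, Eif1, Eif5a and Eif3i, whose sign on the TPM scale turned with at least 1 hairpin. Eif4ebp1 encodes the inhibitor that keeps eIF4E from eIF4G until mTOR phosphorylates it. It was at 146 and 199 TPM in somatic and 150 and 395 TPM in axonal shControl, and at 169 and 246 against 141 and 278 TPM with shPum2, so its TPM overlapped. Its TMM-scaled log2 difference was 3.37 (SE 0.79, adjusted p = 0.0248) with shControl and 2.90 (SE 0.78, adjusted p = 0.0374) with shPum2 (edgeR quasi-likelihood, Benjamini-Hochberg). Tpt1 had log2 differences of 3.17 (SE 0.48, adjusted p = 0.0102) and 3.07 (SE 0.48, adjusted p = 0.0121) in the same edgeR fit. Eif5a had 2.36 and 2.75, Eif1 2.37 and 2.66, Eef1e1, a protein of the tRNA synthetase complex, 2.52 and 2.57, and the eIF3 subunit Eif3i 2.05 and 2.23.

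Of the 4 members lower with either hairpin, 3 were shared. Eef1a2 had log2 differences of -5.73 (SE 1.07, adjusted p = 0.0182) with shControl and -5.21 (SE 1.04, adjusted p = 0.0199) with shPum2 (edgeR quasi-likelihood, Benjamini-Hochberg). Eif4enif1, which shuttles eIF4E into the nucleus, was at 33.5 to 39.1 TPM in somatic and 0.123, 0.0988, 0.696 and 0.0607 TPM in axonal libraries, with log2 differences of -5.59 and -4.28. Eif4g3, an eIF4G scaffold, was at 71.1 to 78.0 TPM in somatic and 0.710, 0.311, 2.46 and 0.441 TPM in axonal libraries, with -4.41 and -3.21. Eif4a2 passed with shControl (-2.34, adjusted p = 0.0367, edgeR, Benjamini-Hochberg) and had -0.76 with shPum2 (adjusted p = 0.43). Eif4e3 passed with shPum2 (-4.55, adjusted p = 0.0495, edgeR, Benjamini-Hochberg) and had -3.85 with shControl (adjusted p = 0.0655). The difference between hairpins did not pass for any member.

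These calls depend on how the compartments are put on 1 scale. Scaling by total counts moved the median of all genes from -0.75 to -2.35 with shControl and from -0.64 to -2.03 with shPum2, and RLE size factors moved it to -0.47 with each. With RLE the same 6 were higher, and 3 lower (Eef1a2, Eif4enif1 and Eif4g3), with each hairpin. Over all genes RLE gave 9.67% higher and 17.3% lower with shControl, and 8.43% and 15.4% with shPum2. Under total counts 1 member was higher (Tpt1) and 18 lower with shControl, and 3 were higher (Tpt1, Eif1 and Eif5a) and 14 lower with shPum2. Over all genes total counts gave 4.94% higher and 29.2% lower with shControl, and 4.36% and 24.4% with shPum2, so the 18 and 14 members of 59 (30.5% and 23.7%) were near the background. In a limma test of log2(TPM + 1), where the medians of all genes were -2.40 and -2.36, 0 were higher and 42 lower with each hairpin, and Tpt1 had differences of 0.40 and 0.25. Over all genes 3.78% were higher and 63.1% lower with shControl, and 3.32% and 63.5% with shPum2. Eef1e1, Eif1, Eif5a and Eif3i had negative differences on that scale with both hairpins, and Eif4ebp1 with shPum2. Relative to the median of all genes, Eef1a2, Eif4enif1 and Eif4g3 were lower under each of these scalings. Leaving out any somatic library of the hairpin compared left 0 calls in either direction, over all genes as well as members. Without replicate 1 of axonal shControl 9 members were higher and 9 lower, against 13.4% and 23.4% of all genes. Without its replicate 2 the counts were 5 and 6, against 10.9% and 16.7%. Without replicate 1 of axonal shPum2 they were 14 and 7, against 13.2% and 25.0%, and without its replicate 2 they were 4 and 5, against 8.61% and 13.4%.

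**Figure D3:**
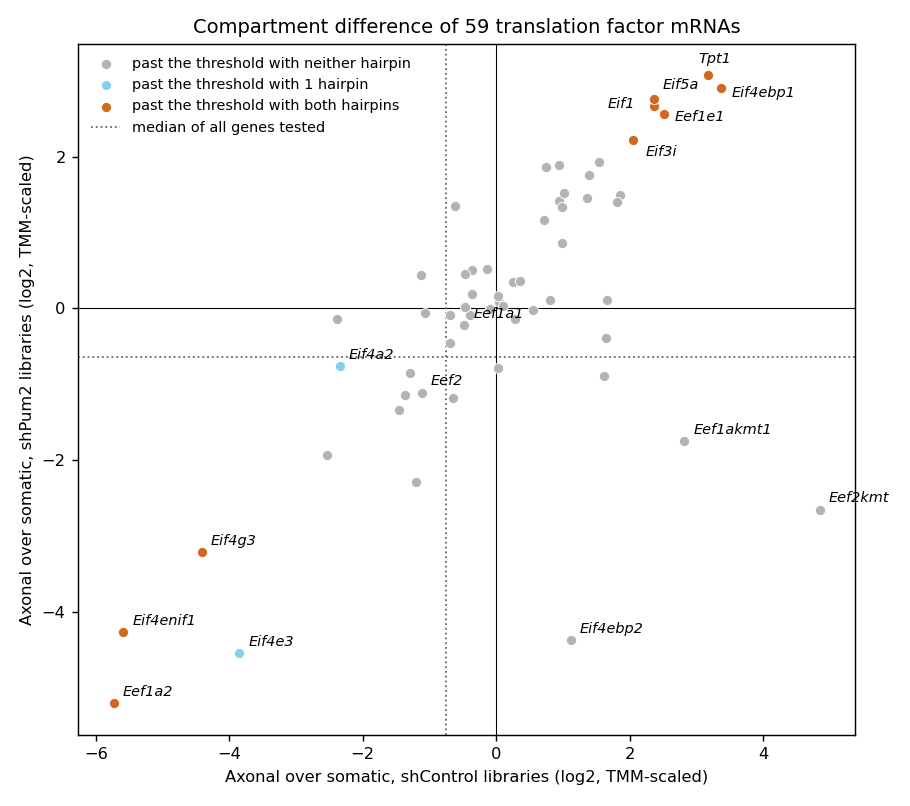
TMM-scaled log2 differences of axonal over somatic libraries for the 59 members, with shControl on the horizontal and shPum2 on the vertical axis; dotted lines mark the medians of all genes tested (-0.75 and -0.64). The 6 members higher with both hairpins sit at the upper right and the 3 lower with both, Eef1a2, Eif4enif1 and Eif4g3, at the lower left; on total counts the higher calls shrink to 1 and 3.

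By role, the 4 members grouped with eEF1B, Eef1e1 included, all had positive TMM-scaled differences with both hairpins (medians 1.15 and 1.43), but on total counts only 1 of the 4 was positive. The 9 members of eIF4F and its helpers had 3 positive with each hairpin and medians of -1.20 and -0.76, and 0 were positive on total counts. In this group 0 were called higher and 2 lower each time, beside 18.5% and 16.2% of all genes called lower. A count of 2 among 9 genes is near that background. Over all genes tested, 41.5% had positive TMM-scaled differences with shControl and 40.2% with shPum2. The 11 eIF3 subunits had 8 positive each time (medians 0.036 and 0.52) and 2 on total counts, with 1 called higher, Eif3i. For the 10 measured TOP mRNAs the medians were 0.60 and 0.61, and -0.98 and -0.92 on total counts, with 1 called, Tpt1. Relative to the median of all genes, which total counts move as well, the median of eIF4F and its helpers lay below it and those of the other three groups above it with both hairpins, under TMM and under total counts. With RLE and shPum2 the eIF4F median, -0.38, lay above that of all genes (-0.47), and on log2(TPM + 1) with shControl the eIF3 median, -2.74, lay below it (-2.40). Eef1a1 had log2 differences of -0.48 (SE 0.49) with shControl and -0.22 (SE 0.49) with shPum2, the latter 0.15 with RLE size factors. Eef2 had -1.11 (SE 0.45) with either hairpin, and neither gene passed on TMM-scaled counts. On total counts both passed as lower (edgeR quasi-likelihood, Benjamini-Hochberg): Eef1a1 had -2.05 (adjusted p = 0.014) and -1.86 (adjusted p = 0.0165), and Eef2 -2.68 (adjusted p = 0.0126) and -2.65 (adjusted p = 0.0157), with shControl and shPum2. Both were also among the 42 lower on log2(TPM + 1).

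Shorter transcripts had the higher axonal to somatic differences. Across the 59 members Spearman's rho between transcript length and TMM-scaled log2 difference was -0.71 with shControl and -0.62 with shPum2, beside -0.32 and -0.35 across all 12337 genes tested. These are descriptions across genes, which are not independent replicates and share the libraries. The 19 members under 1500 bases had median differences of 1.55 and 1.45, the 29 members in between 0.036 and -0.012, and the 11 members of 3000 bases or more -1.29 and -0.85. In TPM the axonal mean was 46.4% of the somatic mean for the median short member, 15.7% for the middle group and 7.11% for the long one. Tpt1 has 794 bases, Eif4ebp1 862, Eef1e1 998, Eif1 1074, Eif3i 1098 and Eif5a 1213, so all 6 members called higher are short. Of those called lower with both hairpins, Eef1a2 has 2035 bases, Eif4enif1 3625 and Eif4g3 5307. The part of the library kit in this relation cannot be told apart from that of the compartment.

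**Figure D4:**
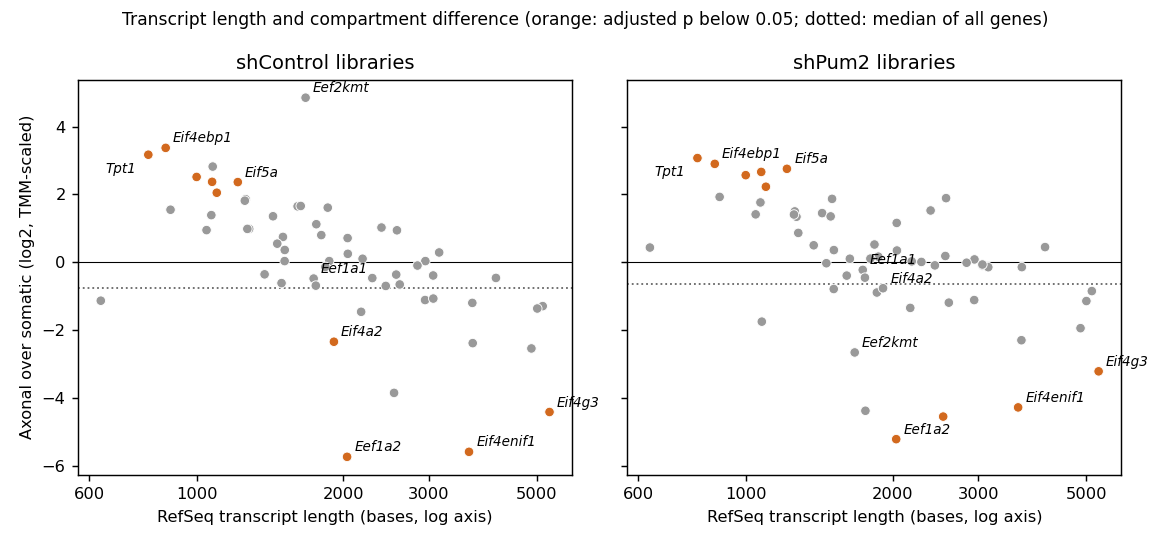
RefSeq transcript length (bases, log axis) against the TMM-scaled log2 difference of axonal over somatic libraries for the 59 members, with shControl on the left and shPum2 on the right; orange points passed the threshold. Differences decline with length in both panels, from medians of 1.55 and 1.45 under 1500 bases to -1.29 and -0.85 at 3000 bases or more.

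After knockdown of Pum2 most members differed little in somatic libraries, where 1 of 12346 genes tested passed the threshold. Of 59 members, 0 passed the threshold and 0 had an unadjusted p below 0.05 (edgeR quasi-likelihood, Benjamini-Hochberg), against 0.0081% of 12346 genes past the threshold and 0.599% at the unadjusted level. DESeq2 called 0 members, with 1 at an unadjusted p below 0.05 (0.48% of all genes). Without replicate 2 of somatic shPum2, 3 members had an unadjusted p below 0.05 in edgeR, against 13.8% of all genes, and with the replicate number as a block 4 members did, against 5.72%. The median log2 difference was -0.010, beside 0.0089 over all genes, and 55 of 59 members lay within 0.2 of 0. The share of all genes within 0.2 of 0 was not computed. On TMM-scaled counts the 2 shPum2 libraries lay above both shControl libraries for 4 members and below them for 5, 15.3% together. Over all genes the share was 23.7%, with 11.1% above and 12.6% below. The median standard error was 0.10, and even a difference of -0.31, that of Eef1a2, did not pass. Only Pum2 passed among all genes tested, with a log2 change of -2.13 and a standard error of 0.074. Differences well above the standard error could therefore also go undetected.

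Eif4e, the cap-binding protein, was at 81.8 and 82.9 TPM with shControl and at 87.5 and 87.7 TPM with shPum2. Both shPum2 values were higher, but once scaled by TMM the counts overlapped, with a log2 difference of 0.082 (95% interval -0.13 to 0.29; Benjamini-Hochberg adjusted p = 0.9997 in edgeR's quasi-likelihood test). Positive somatic differences were found in 28 of 59 members and in 52.7% of all genes. The 4 eIF4E-binding members all had positive differences, with a median of 0.18, and none passed. Among them Eif4ebp2, a brain-enriched inhibitor of eIF4E, was at 19.0 and 16.0 TPM with shControl and 26.1 and 18.6 TPM with shPum2, a log2 difference of 0.34 with a 95% interval from -0.16 to 0.84. Eif5a2 had 36.3 and 31.3 against 38.9 and 38.7 TPM and a difference of 0.20. Eif5b, which joins the ribosomal subunits, had 61.9 and 59.9 against 69.3 and 61.4 TPM and a difference of 0.094. Eef2kmt had the most positive difference, 0.90, at levels near 1 TPM and with a 95% interval from -1.33 to 3.12.

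On the lower side Eef1a2 was at 252 and 232 TPM with shControl and at 180 and 210 TPM with shPum2. The groups did not overlap, and the log2 difference was -0.31 with a 95% interval from -0.65 to 0.024 (Benjamini-Hochberg adjusted p = 0.9997 in edgeR's quasi-likelihood test). The ratio of Eef1a1 to Eef1a2 was 16.8 and 19.0 with shControl and 24.0 and 20.2 with shPum2. Replicate 1 of shPum2, which has the lowest Eef1a2, also has the highest sum of fibroblast markers, 8658 CPM; their part in the difference was not tested. The eIF2B subunits Eif2b5 and Eif2b1 had differences of -0.13 and -0.087, and the eIF3 subunits Eif3i and Eif3g -0.076 and -0.10. None of these passed. In the authors' deposited table of the somatic comparison, 0 of 64 members had an adjusted p below 0.05, and Eef1a2 had the only p-value below 0.05 (log2 fold change -0.23, p-value 0.0293). The 5 members with no match in the library files, Eef1akmt2, Eif2a, Eif3el1, Eif3k and Eif4e2, had log2 fold changes from -0.016 to 0.070 in that deposited table.

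In axonal libraries 0 of 55 tested members passed and 0 had an unadjusted p below 0.05 (edgeR quasi-likelihood, Benjamini-Hochberg), against 0.0% and 3.02% of 8517 genes. Eef2kmt, Eif4e3, Eif4ebp2 and Eif4enif1 were too low to be tested. The median log2 difference was 0.18, beside -0.049 over all genes. Leaving out replicate 2 of axonal shPum2 turned it to -0.39. On TMM-scaled counts the groups did not overlap for 12 members, 7 higher and 5 lower with shPum2, which is 21.8% of those tested. Over all genes it was 27.1%, with 13.4% higher and 13.7% lower. The median standard error was 1.17, beside 0.10 in the somatic comparison, so a difference of 2-fold was not detectable for most members.

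Eif2s3, the eIF2 subunit that holds the initiator tRNA, was at 4.60 and 0.808 TPM with shControl and 18.8 and 10.1 TPM with shPum2, a log2 difference of 2.18 with a 95% interval from -1.06 to 5.42. Eif4a2 was at 6.24 and 15.9 against 24.9 and 34.0 TPM, a difference of 1.44 with an interval from -1.24 to 4.12. Eif2b2, Eif3c and Eif2b1 had 2.01, 0.95 and 0.97. None of these differences passed, although on TMM-scaled counts both shPum2 libraries lay above both shControl libraries for all 5. In TPM that did not hold for Eif3c, at 25.7 and 7.23 TPM with shControl and 49.7 and 25.0 TPM with shPum2. Eef1akmt1, a lysine methyltransferase of eEF1A, had 19.0 and 23.4 TPM with shControl and 0 and 1.42 TPM with shPum2. Its log2 difference of -4.62 had an interval from -10.7 to 1.42. Eif1a, Eif2b4, Eif2b3 and Eif4a1 had -2.52, -1.71, -2.10 and -0.73. Eif2b3 became 2.16 and Eif4a1 0.25 without replicate 2 of axonal shControl, where Eif2b3 was at 48.5 TPM against 1.17 TPM in replicate 1. Axonal Eif4e was at 15.5 and 35.4 TPM with shControl and 35.0 and 38.2 TPM with shPum2, and the values overlapped. In the authors' deposited table of the axonal comparison 59 of the 64 members had an adjusted p. Of these 0 were below 0.05, the lowest in that deposited table being 0.201, and 2 members, Eif4ebp2 and Eef1akmt1, had a p-value below 0.05 (0.0183 and 0.0217). Axonal Eif4ebp2 was at 10.5 and 0.0356 TPM with shControl and at 0.347 and 0.0526 TPM with shPum2. Its difference thus rests on replicate 1 of axonal shControl.

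**Figure D5:**
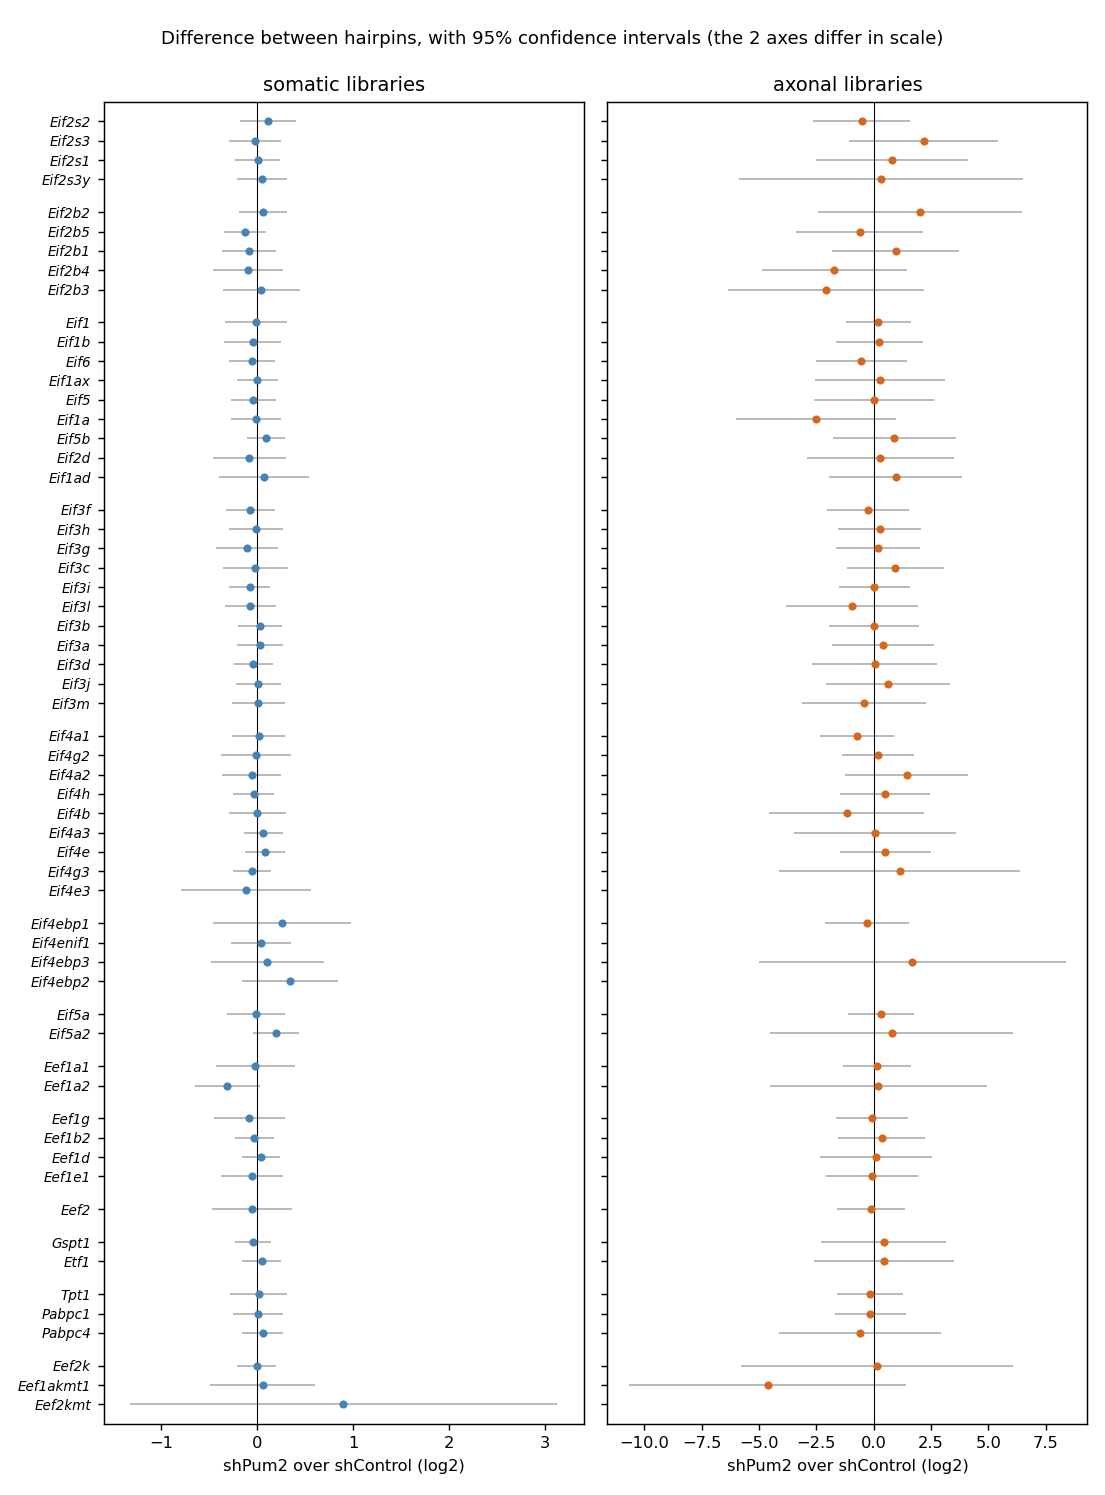
Log2 differences of shPum2 over shControl for each member with 95% confidence intervals, in somatic (left) and axonal (right) libraries, in the role order of the plot of levels; the horizontal axes differ. Of 59 somatic differences 55 lie within 0.2 of 0, while the 55 axonal ones run from -4.62 to 2.18 and every interval in both panels includes 0.

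The knockdown difference itself was compared between compartments. Of 59 members, 0 passed and 0 had an unadjusted p below 0.05 (edgeR quasi-likelihood, Benjamini-Hochberg), against 0.0% and 7.81% of 12337 genes. The median log2 value was 0.22, beside -0.010 over all genes. Values ran from -7.51 for Eef2kmt to 2.24 for Eif2s3. Without replicate 1 of axonal shControl, which holds nearly all axonal Eef2kmt (3.41 TPM against 0 in replicate 2), Eef2kmt became 2.84 and 2 members passed, Eif2b2 and Eif2s3, against 5.62% of 12696 genes.

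The regulators that act on these factors were read from a separate list of kinases, phosphatases, mTOR pathway proteins, modifying enzymes and recycling factors, of which 40 of 45 were measured. In both knockdown comparisons 0 passed. Between compartments 3 were higher and 5 lower with shControl, and 4 higher and 3 lower with shPum2 (edgeR quasi-likelihood, Benjamini-Hochberg). Over all genes these shares were 9.41% and 18.5%, and 8.45% and 16.2%, so counts of this size among 40 genes are near or below the background. Tsc2, the brake on mTOR signalling, was at 34.6 and 35.2 TPM in somatic and 60.5 and 69.0 TPM in axonal shControl, and at 33.8 and 32.1 against 224 and 143 TPM with shPum2. Dph3, which helps make the diphthamide residue of eEF2, was at 25.1 to 29.1 TPM in somatic and 83.8 to 134 TPM in axonal libraries. Gcn1, which passes stalled ribosomes on to an eIF2 kinase, was at 35.3 to 39.8 TPM in somatic and 0.0452 to 0.180 TPM in axonal libraries. Of the 12 mitochondrial translation factors 11 were measured, and 0 were higher and 2 lower with shControl (Mtrf1l and Mtif2) and 0 in either direction with shPum2, against the same shares over all genes.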

How the data were processed

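For each library the authors deposited estimated counts and TPM of 18321 RefSeq transcripts, per the file headers; kallisto, DESeq2 and build Rnor_6.0 are named in the submitters' processing notes, without versions. The authors' 2 deposited comparison tables give a mean signal, log2 fold change, its standard error, a test score and both p-values and adjusted p-values (file headers again, as deposited).

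Symbols came from RefSeq annotation of GRCr8 (17367 of 18321 transcripts matched, 94.8%); unmatched transcripts held 2.02% to 3.62% of a library's counts and kept their identifiers. Counts were summed by gene, rounded and tested with edgeR 4.0.16 in R 4.3.3 (TMM, its expression filter, quasi-likelihood, Benjamini-Hochberg over all genes tested, threshold 0.05). Each knockdown comparison used its 4 libraries; both compartment comparisons and the interaction came from 1 fit of all 8. Levels and paralog ratios used TPM, the ratios with 1 TPM added. CPM are shares of a library's total count. A library's 3 counts correspond to 0.116 to 0.258 CPM, counting error only.

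Named were the most abundant members of each role, paralog pairs, members past the threshold (at most 8 per direction) or with the smallest p (up to 5), and up to 4 of each other list. Members and lists were chosen with earlier results of these data known. Alternatives were other size factors, total-count scaling, no filter, DESeq2 1.42.0, limma 3.58.1 (voom, and log2(TPM + 1)), the replicate number as a block, other library sets and each library left out. The tests were checked on simulated counts. Labels do not pair replicate numbers.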

Additional observations from a re-analysis of the deposited data

How the results depend on the processing

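The somatic and axonal knockdown comparisons and the interaction kept 0 members past the threshold under every alternative run, except 2 in the interaction without replicate 1 of axonal shControl (range 0 to 2), where 5.62% of all genes passed. Over all genes, DESeq2 called 346 of 12081 in the axonal comparison and 627 of 15049 in the interaction. Leave-one-out medians of the members ran from -0.059 to 0.039 in the somatic and from -0.39 to 0.37 in the axonal comparison. In the interaction they ran from -0.35 to 0.47. With 1 library left out, Eif3g ran from -0.26 to 0.031 (somatic), Eif2b3 from -3.41 to 2.16, Eif4a1 from -1.27 to 0.25 and Eif4e from -0.032 to 1.12 (axonal), and Eef2kmt from -11.2 to 2.84 and Eif4ebp2 from -6.50 to 1.79 (interaction). The cause was not tested.

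With shControl, the members higher and lower in axons were 6 and 4; total-count scaling gave 1 and 18, limma on log2(TPM + 1) 0 and 42, the 4 libraries of that hairpin 10 and 3, and leave-one-out 0 to 9 in both directions. With shPum2 they were 6 and 4; total-count scaling gave 3 and 14, limma on log2(TPM + 1) 0 and 42, the 4 libraries of that hairpin 2 and 1, DESeq2 11 higher, and leave-one-out 0 to 14 and 0 to 7. Over all genes, the fits of 4 libraries called 1312 higher and 2641 lower of 11834 with shControl, and 706 and 1479 of 12077 with shPum2. DESeq2 called 1809 of 15049 genes higher with shPum2. Medians of the members were -1.47 and -1.42 with total counts, -0.0562 and -0.0558 with limma voom and -2.74 and -2.62 with log2(TPM + 1), for shControl and shPum2. With 1 library left out they ran from -0.19 to 0.35 and from -0.070 to 0.37. On log2(TPM + 1), Eef1e1 was at -0.29 and -0.34, Eif1 at -0.41 and -0.14, Eif5a at -0.40 and -0.088, Eif3i at -0.73 and -0.51 and, with shPum2, Eif4ebp1 at -0.043. Eef1a1 with shPum2 was 0.15 with RLE size factors and with DESeq2 and ran from -1.07 to 0.46 with 1 library left out.

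With the replicate number as a block, members lower with shPum2 were 2, since Eif4enif1 (-4.50, adjusted p = 0.0574 in edgeR) and Eif4e3 no longer passed. The medians became 0.00052 with shControl and -0.031 with shPum2, and those of all genes -1.21 and -1.07. Other counts of calls stayed within 1.5 times. Same-numbered libraries deviated together in soma (correlation 0.708) and little in axons (0.115); the labels give no pairing.

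The summed level was 14091 and 13983 TPM in somatic shControl and shPum2 without Eef1a1, 15246 and 17398 when rescaled without each library's 10 most abundant genes (which include Eef1a1 in 3 somatic libraries), and 9199 and 9128 in axons on that scale. As CPM it was 18851 in somatic shPum2 and 9543 and 10217 in axonal shControl and shPum2; leave-one-out ranges were 18021 to 18837, 18137 to 18444, 5066 to 8000 and 6089 to 7301 TPM. Paralog ratios, with pseudocounts and omissions added after seeing the data: Eif4a1 over Eif4a3 ran from -0.38 to 1.11 with 1 library left out, Eif4g2 over Eif4g3 -0.12 with 5 TPM added, and Eif2s3 over Eif2s3y 0.11 with 0.1 TPM added and from -1.44 to 0.094 with 1 library left out (log2, axonal minus somatic). With 1 library left out the test cannot go below 0.0571.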
